A study of Mus musculus with 2 samples.

Results

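The proteasome genes of mouse pup epidermis were compared between a pool labelled as lacking the vitamin D receptor gene (Vdr) in keratinocytes and a pool of littermate controls. Members were all probes of a bead array whose gene symbol begins with Psma, Psmb, Psmc, Psmd or Psme followed by a digit, which gave 60 probes for 41 genes among 25697 probes. Of these 41 genes, 40 encode subunits, assembly chaperones or activators of the proteasome or a close copy of one. The remaining gene, Psmc3ip, encodes a partner protein in meiotic recombination that carries a similar symbol. A gene was counted as detected with a detection p-value under 0.01 against the negative control beads in at least 1 pool, and 38 of the 41 genes were detected, 37 of them in both pools.

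The KO pool held epidermal RNA of 3 C57BL6 mice at postnatal day 5 that carried a floxed Vdr gene (fl/fl) and a Cre recombinase driven by the keratin 14 (K14) promoter. The CON pool held RNA of 3 littermates of the same age with the floxed gene and no Cre in the label. That promoter is active in basal keratinocytes, so the deletion is aimed at keratinocytes and the other cells of the epidermis are not its target. Each genotype was measured on 1 array from 1 pool, so no difference below has a test or a spread between mice, and every direction rests on the label of the KO pool. The probes of Vdr did not check that label. The brightest read 2442.1 in the KO pool and 1913 in the CON pool, and the second 1559.6 in KO and 1203.7 in CON. The third, a dim probe, read 189 in KO and 193 in CON. Their places relative to the deleted part are not known here. The epidermis was separated with dispase, and all 6 keratinocyte markers examined were detected, with a summed raw signal of 143824.1 in the KO pool and 141651.2 in the CON pool.

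The proteasome degrades proteins that carry ubiquitin chains. Its 20S core is a barrel of outer alpha rings that gate the entrance and inner beta rings that hold the peptidase sites, and its 19S regulator has a base with ATPases that unfold substrates and a lid that removes ubiquitin. Interferon-induced beta subunits can replace the constitutive peptidases, and activator proteins can cap the core in place of the regulator. In the differentiating layers of the epidermis, regulated protein breakdown accompanies the replacement of basal by suprabasal proteins. The transcription factor Nfe2l1 is known to raise proteasome genes together through antioxidant response elements in their promoters.

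Promoter sequence is shown for 4 core and activator genes, those among the brighter members (mean log2 signal of 8 or more) that lay farthest from 0: Psma3 and Psmb6 read higher in the KO pool, and Psmb5 and Psme1 read lower. The sequences are the 250 bases before the RefSeq gene start in GRCm38.p6, 5′ to 3′ on the strand of the gene, and capitals mark the letters TGACNNNGC of the antioxidant response element core on either strand. The Psma3 window is chr12:70974373-70974622 (plus strand), the Psmb6 window chr11:70525107-70525356 (plus strand), the Psmb5 window chr14:54617996-54618245 (minus strand) and the Psme1 window chr14:55578244-55578493 (plus strand).
Psma3: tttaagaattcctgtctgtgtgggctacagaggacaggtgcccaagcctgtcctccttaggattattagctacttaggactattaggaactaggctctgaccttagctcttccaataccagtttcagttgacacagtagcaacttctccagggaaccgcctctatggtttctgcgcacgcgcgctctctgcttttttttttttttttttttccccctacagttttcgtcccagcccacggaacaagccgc
Psmb6: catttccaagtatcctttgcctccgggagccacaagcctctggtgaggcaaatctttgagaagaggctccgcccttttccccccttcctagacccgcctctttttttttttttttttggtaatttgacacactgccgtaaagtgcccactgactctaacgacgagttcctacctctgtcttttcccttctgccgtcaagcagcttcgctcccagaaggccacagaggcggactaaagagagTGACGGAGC
Psmb5: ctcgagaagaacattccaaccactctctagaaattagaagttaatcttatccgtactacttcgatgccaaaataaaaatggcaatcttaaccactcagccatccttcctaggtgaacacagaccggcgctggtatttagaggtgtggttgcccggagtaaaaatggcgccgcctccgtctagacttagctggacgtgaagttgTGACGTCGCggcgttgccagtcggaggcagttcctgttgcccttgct
Psme1: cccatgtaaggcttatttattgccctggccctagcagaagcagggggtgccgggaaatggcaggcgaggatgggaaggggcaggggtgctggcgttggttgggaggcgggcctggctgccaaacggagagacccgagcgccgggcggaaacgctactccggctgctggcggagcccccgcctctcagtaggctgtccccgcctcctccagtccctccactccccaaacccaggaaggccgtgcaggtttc

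The letters were present in Psmb5, where they began 47 bases before the gene start, and in Psmb6, where they began 9 bases before it, while the printed windows of Psma3 and Psme1 did not hold them. Psmb5 and Psmb6 differed in the direction of their readings. Over the proteasome genes, 35 had a promoter window in the RefSeq table, with 38 windows in all, and 5 windows held the letters (13.2%), those of Psmb5, Psmb6, Psmc6, Psmd12 and Psmd9. Of all 32851 windows 10.2% held them. The table held no window for Psmb1, Psmb2, Psmb7, Psmc3 and Psmd7. A match is a description of letters, not a site.

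As a whole the proteasome genes differed little between the pools. The median log2 change, KO over CON, was 0.05 over the 38 detected genes, which is 1.04-fold, against 0.00 over all 8864 detected genes, and 28 of the 38 lay within 1.2-fold. By the 1.5-fold rule 1 gene was higher, Psme2b, and 1 was lower, Psmb8 (2.63% each), against 3.1% of all detected genes called higher and 2.28% called lower. The Psmb8 call used a KO reading that was not detected. It had only a bound, at least 1.35-fold lower under the processing used here. Over genes detected in both pools no member was 1.5-fold lower. By 1.2-fold 5 were higher (Psma3, Psmb9, Psmd14, Psme2b and Psmc3ip) and 5 lower (Psmb5, Psmb8, Psmd2, Psmd11 and Psme1), 13.2% each, against 15.6% of all detected genes higher and 13.7% lower. These member shares were near the background. Of all detected genes past 1.5-fold 57.7% were higher, against 68.5% without background correction and 76.2% in the authors' values. The sign was less even: 27 of the 38 genes (71.1%) had a log2 change above 0, against 50.2% of all detected genes. The authors' values also had 27 above 0. Several signs rested on values close to 0. When the arrays were centred on their 75th percentile, Psmc5 (-0.01), Psmd7 (-0.03) and Psme4 (-0.02) fell below 0. With the mean of detected probes Psmb2 (-0.01), Psmc5 (-0.08) and Psmd9 (-0.46) fell below 0 and Psmd11 (0.23) rose above it.

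**Figure D1:**
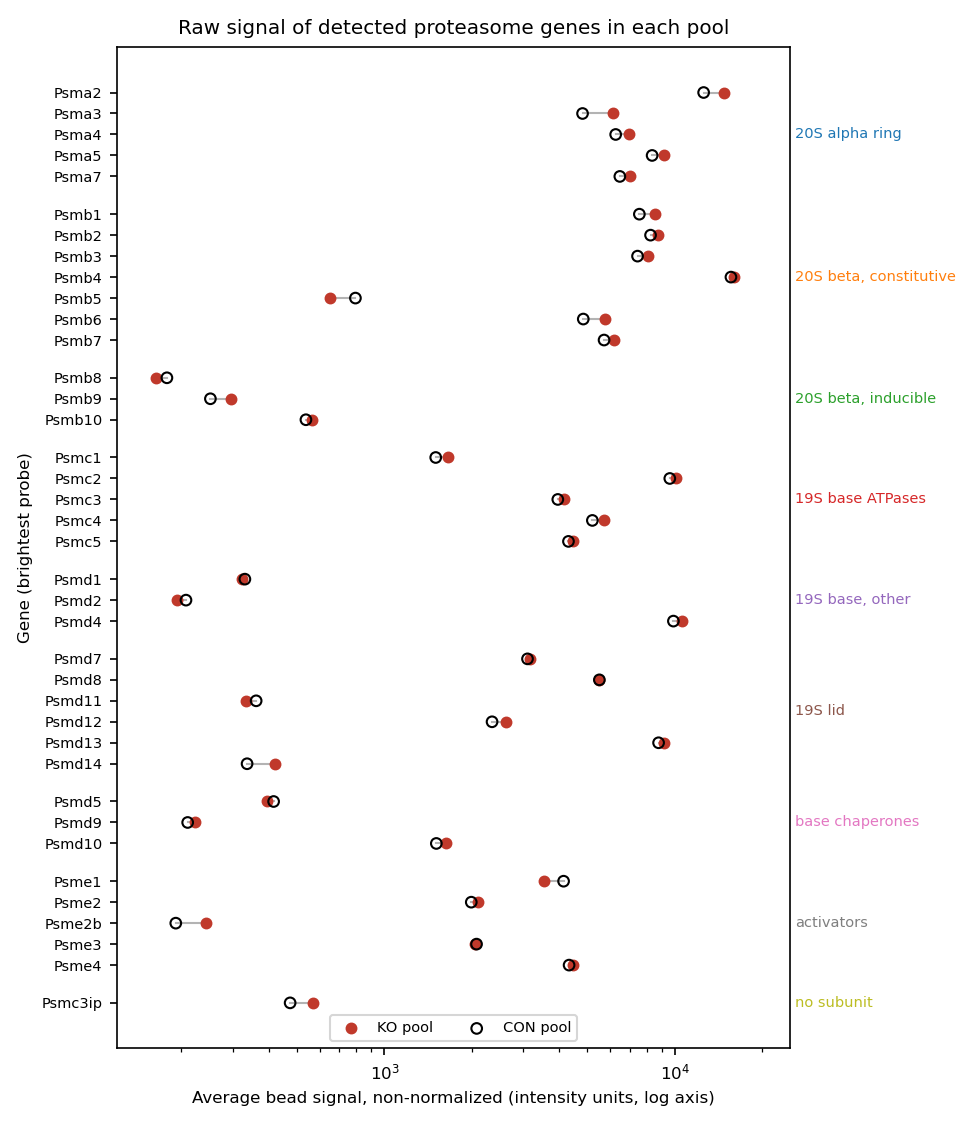
Average bead signal of each detected proteasome gene on a log axis (intensity units, non-normalized), with the KO pool as filled red points and the CON pool as open circles, 1 array each, grouped by subcomplex from top to bottom. Most filled points lie just right of their open circles, but these signals still hold any difference between the arrays as a whole. Psmb4 and Psmd13 lie to the right here and had log2 changes of -0.07 and -0.02 after normalization. Psmb5 (648.3 in KO, 794.5 in CON) and Psme1 (3530.4 in KO, 4139.1 in CON) lie clearly to the left. No order between genes is to be read from signals of different probes.

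The lean above 0 sat in the bright genes and was small. Among 26 members with a mean log2 signal of 10 or more, 21 were above 0, with a median of 0.06, where 49.5% of the 2552 detected genes of that class were above 0. Of 8 members between 7 and 10 on that scale 4 were above 0, and of 4 members under 7, 2 were. At a mean log2 signal of 8 or more, 23 of 30 members (76.7%) were above 0 against 50.2% of 5105 genes, 2 were 1.2-fold higher (Psma3 and Psmc3ip) against 10.2% of genes, and 2 were 1.2-fold lower (Psmb5 and Psme1) against 8.64%. The subunits belong to 1 complex and share both arrays, so they are not independent readings.

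Probes of the same gene also disagreed, which bears on the reading of any single gene. Over 948 genes whose second detected probe had a mean log2 signal of 8 or more, the log2 changes of the brightest and the second probe differed by a median of 0.13 and by 0.36 at the 90th percentile. This is a difference between single probes and gives no error for a median over many genes. Both probes lie on the same arrays, so their disagreement holds no variation between mice.

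By larger assemblies, the 12 detected genes of the constitutive 20S core had a median log2 change of 0.06 with 10 above 0. The 14 detected genes of the 19S regulator had a median of 0.02 with 9 above 0.

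**Figure D2:**
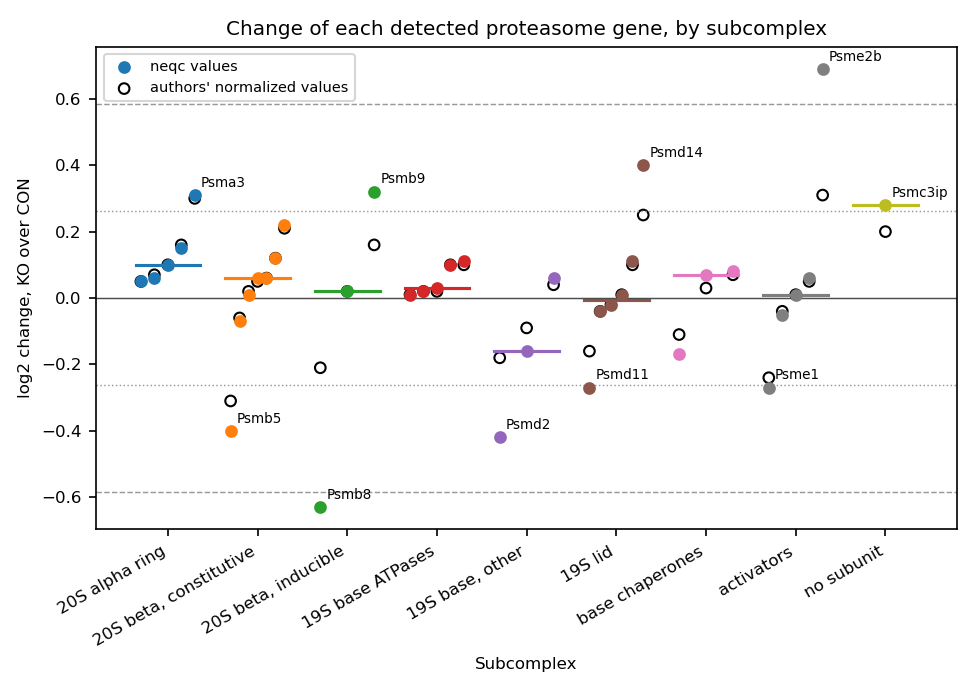
Change of each detected proteasome gene, KO over CON on the log2 scale, by subcomplex; filled points are background-corrected, quantile-normalized (neqc) values, open circles the authors' normalized values of the same probe, and short bars the median of the filled points, with dotted lines at 1.2-fold and dashed lines at 1.5-fold. All points of the alpha ring and of the base ATPases lie above 0. Psme2b (0.69) and Psmb8 (-0.63) are drawn beyond the dashed lines, where their open circles (0.31 and -0.21) are not. Psmb8 was not detected in KO and is bounded only at 1.35-fold lower, in the neqc values.

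The genes of the alpha ring, which forms the gated entrance of the core, read slightly higher in the KO pool. This was not particular to that ring. Of 7 constitutive beta genes 5 were above 0, as were all 5 detected base ATPases, with medians of 0.06 and 0.03. All 5 detected alpha genes had log2 changes above 0, from 0.05 to 0.31, with a median of 0.10. Psma3 had the highest value: its bright probe read 6120.8 in the KO pool against 4810.9 in the CON pool, a log2 change of 0.31 (1.24-fold), and 0.30 in the authors' normalized values. Among 26 members with a mean log2 signal of 10 or more, 1 lay outside the 5th to 95th percentile of all genes there. That was Psma3, just past the edge of the range, -0.29 to 0.30. By definition the range leaves out 5% of the class at each end, so this does not set Psma3 apart. Its second probe was not detected in either pool.

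Psma2 read 14825.1 in the KO pool and 12565.6 in the CON pool, a log2 change of 0.15. Psma4 read 6962 in the KO pool and 6256.3 in the CON pool (0.10), and Psma5 read 9197.3 in the KO pool and 8352.4 in the CON pool (0.06). Psma7 was measured by 2 bright probes, 6998.3 in KO and 6466.2 in CON on the first and 6098.7 in KO and 5484.3 in CON on the second, with log2 changes of 0.05 and 0.11. Both probes thus lay above 0. The probes of Psma1 and Psma6 were not detected in either pool (raw signals 131.5 to 145), although the ring needs every alpha subunit, so the array gave no reading of these 2 genes. No probe carried the symbol Psma8, which was not analysed here.

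The constitutive beta ring holds the peptidases, and these did not read alike. Psmb5, the chymotrypsin-like peptidase, read 648.3 in the KO pool and 794.5 in the CON pool, a log2 change of -0.40, which is 1.32-fold lower, and -0.31 in the authors' values. Psmb6, the caspase-like peptidase, read 5760.6 in the KO pool and 4838.7 in the CON pool, a log2 change of 0.22. Psmb7, the trypsin-like peptidase, had log2 changes of 0.06, 0.05 and 0.22 on its 3 probes, the brightest of which read 6178.3 in the KO pool and 5705.6 in the CON pool. Thus the 3 peptidase genes gave readings on both sides of 0, and Psmb5 rested on 1 probe of moderate signal.

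The structural beta subunits lay between -0.07 and 0.12 on the log2 scale. Psmb1 read 8542.6 in the KO pool and 7548.9 in the CON pool (0.12 on the log2 scale), and Psmb3 read 8064.9 in the KO pool and 7439.9 in the CON pool (0.06). Psmb4 read 15992.6 in the KO pool and 15603.7 in the CON pool. Its log2 change was -0.07 after normalization. The raw median over all probes was 158.5 in the KO pool and 153.6 in the CON pool. Psmb2 had 2 detected probes at 0.01 and -0.04, and its other probe was detected in neither pool. Over the 7 genes of this ring the median was 0.06 and 5 were above 0.

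The inducible beta subunits, which replace the peptidases under interferon and are the standing form in many immune cells, had readings on both sides of 0, and Psmb8 was not detected in the KO pool. Psmb9, which takes the place of Psmb6, read 295.7 in the KO pool and 251.6 in the CON pool, a log2 change of 0.32 (0.16 in the authors' values). Psmb8, which takes the place of Psmb5, read 163.2 in the KO pool, not detected at a detection p-value of 0.0301, and 178.2 in the CON pool, detected at 0.00125. Its normalized log2 values were 5.20 in KO and 5.84 in CON. Against the lowest normalized signal of any detected probe on the KO array, Psmb8 was at least 1.35-fold lower in the neqc values. That bound depends on the processing: the log2 change was -0.63 in those values, -0.21 in the authors' values and -0.17 without background correction. Psmb10, which takes the place of Psmb7, had log2 changes of 0.02 and 0.11 on its 2 probes, the brightest of which by mean signal read 562.6 in KO and 536.6 in CON.

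On chromosome 17 the genes follow each other in the order Psmb9, Tap1, Psmb8, Tap2 in the RefSeq gene table. The transporter genes Tap1 and Tap2, which carry proteasome products into the endoplasmic reticulum, had log2 changes of 0.21 and 0.13, so Psmb8 was the 1 gene of the 4 with a reading below 0. Among 15 genes of antigen processing and interferon response, 11 were detected, 5 above 0 and 6 below, with a median of -0.01. None was 1.5-fold higher, against 3.1% of all detected genes, and 2 were 1.5-fold lower, against 2.28%: Tapbp, the peptide-loading protein tapasin (-0.69, raw 227.9 in KO and 279.6 in CON), and Ifngr2, a chain of the interferon gamma receptor (-0.67, raw 542.6 in KO and 768.3 in CON). Ifngr2 kept a log2 change of -0.52 in the authors' values and Tapbp -0.35, both under 1.5-fold. Irf1, which acts in the interferon response that raises these subunits, had a log2 change of 0.04, and the highest value of the list was that of Tap1.

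Leukocyte markers were slightly higher in the KO pool beside these readings. Of 10 markers of Langerhans cells, T cells and other leukocytes, 8 were detected and 6 of these were above 0, with a median log2 change of 0.17 and a summed raw signal of 21630.5 in KO and 20086.5 in CON. Cd207, the Langerhans cell lectin, had a log2 change of 0.24, and Ptprc, the common leukocyte antigen, and H2-Aa were detected in neither pool. In RNA of a whole tissue, a change in the number of cells of a type and a change in RNA per cell cannot be told apart. The part of these markers in the readings of the inducible subunits was not tested.

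The ATPases of the base, which unfold substrates and thread them into the core, had the narrowest range of the 8 subcomplexes. All 5 detected genes lay between 0.01 and 0.11, with a median of 0.03. When the arrays were centred on their 75th percentile, Psmc5 fell to -0.01. Psmc1 was highest, with 1658.5 in the KO pool and 1501.8 in the CON pool, and Psmc4 read 5700.1 in the KO pool and 5200.4 in the CON pool (0.10). These values lay close together. Psmc2 read 10132.2 in KO and 9609.4 in CON (0.03), and Psmc3 read 4163.3 in KO and 3953.8 in CON (0.02). Psmc5 was lowest at 0.01, with 4449.2 in KO and 4302.3 in CON, and its second bright probe read 3232.6 in KO and 3539.1 in CON, a log2 change of -0.17. A shift as small as those of the ATPases is thus within what 2 probes of 1 of these genes differed by. Psmc6 was not detected in either pool.

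The other base subunits were 3 genes of unequal signal, and their median was -0.16. Psmd4, the ubiquitin receptor at the junction of base and lid, read 10545.6 in the KO pool and 9887.8 in the CON pool, a log2 change of 0.06. The scaffold subunit gene Psmd1 read 322.4 in KO and 330.7 in CON (-0.16). The other scaffold, Psmd2, read 192.8 in KO and 207.3 in CON, a log2 change of -0.42 that was -0.18 in the authors' values, and its second probe was not detected. The readings below 0 in this group came from its probes of lower signal.

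The lid removes ubiquitin chains from substrates, and its genes lay on both sides of 0 with a median of 0.00 over 6 genes. Psmd14, the deubiquitinase of the lid, was highest, with 419.6 in the KO pool and 336.5 in the CON pool, a log2 change of 0.40 (1.32-fold), and 0.25 in the authors' values. Psmd7, its partner in the lid, had log2 changes of 0.01 and 0.12 on 2 probes, the brighter at 3177.4 in KO and 3109.2 in CON. The scaffold gene Psmd12 read 2617.3 in KO and 2347.5 in CON (0.11). Psmd13 read 9142 in KO and 8791.1 in CON (-0.02), and Psmd8 read 5489.4 in KO and 5497.2 in CON (-0.04), so these scaffold genes lay near 0. Psmd11, another scaffold subunit, was lowest, with 332.8 in KO and 361.6 in CON (-0.27), but its second probe read 173.6 in KO and 148.2 in CON, where it was not detected, and was at least 1.12-fold higher in KO. For Psmd11 the array therefore gave no settled direction. No probe with the symbol Psmd3 or Psmd6 was among the members, and 2 probes under an older clone name that RefSeq gives to Psmd6 were not detected in either pool.

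The chaperones that assemble the base, which are absent from the finished complex, had a median of 0.07. Psmd10, also known as gankyrin, had 3 detected probes with log2 changes of 0.08, -0.10 and 0.21, the brightest reading 1624.6 in KO and 1509.1 in CON. Psmd5 read 395.3 in KO and 415.3 in CON (-0.17). Psmd9 read 223.5 in KO and 210.1 in CON (0.07), while its second probe read 151.2 in KO, where it was not detected, and 175.8 in CON. In the neqc values this second probe was at least 1.28-fold lower in KO. Neither Psmd9 nor Psmd10 thus had probes of 1 direction.

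**Figure D3:**
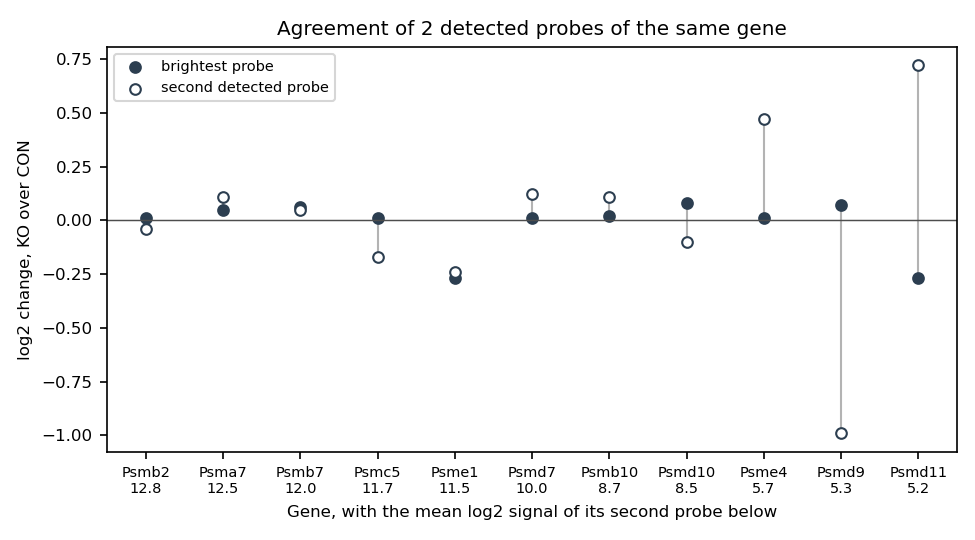
Log2 change, KO over CON, of the brightest probe (filled) and the second detected probe (open) for the 11 proteasome genes with at least 2 detected probes, ordered from left to right by falling mean log2 signal of the second probe, which is printed under each name. Both probes of Psme1 lie together below 0 (-0.27 and -0.24), and the gaps widen at the right, with 0.99 for Psmd11 and 1.07 for Psmd9.

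Among the activators, Psme1 read lower and its ring partner did not. Psme1 and Psme2 form the interferon-induced activator ring that caps the core. Psme1 was bright on both of its probes, with 3530.4 in KO and 4139.1 in CON on the first and 2846.7 in KO and 3260.2 in CON on the second. The log2 changes were -0.27 and -0.24 (1.21-fold and 1.18-fold lower), and -0.24 and -0.23 in the authors' values, a gap of 0.03 between probes. Psme2, which lies near Psme1 on chromosome 14 with 1 gene, Emc9, between them in the RefSeq table, read 2107.1 in KO and 1990.9 in CON, a log2 change of 0.06.

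Psme2b, a close copy of Psme2, had the highest log2 change of all members at 0.69 (1.62-fold), with raw signals of 243 in KO and 191.2 in CON. It was dim, its value was 0.31 in the authors' table, and signal shared with Psme2 was not measured. The nuclear activator gene Psme3 read 2049.7 in KO and 2075.7 in CON (-0.05). Psme4, a large activator linked to histone breakdown, had log2 changes of 0.01 on its bright probe (4452.7 in KO and 4323.8 in CON) and 0.47 on a dim one (189.5 in KO and 166.6 in CON). Psmc3ip, which is no subunit, read 566.3 in KO and 473.4 in CON, a log2 change of 0.28.

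**Figure D4:**
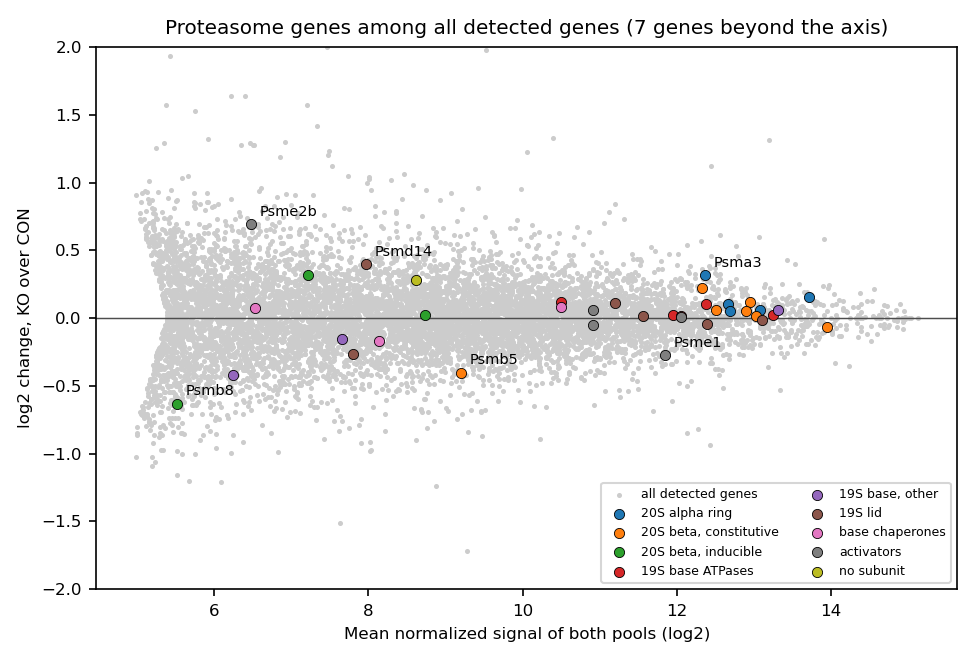
Log2 change, KO over CON, against the mean normalized log2 signal of both pools, with all detected genes as small grey points and proteasome genes as larger outlined points coloured by subcomplex; 7 grey genes lie beyond the vertical axis. The grey cloud narrows to the right, most proteasome genes sit in its bright part just above 0, and Psme2b and Psmb8 sit in its wide dim part.

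The spread of all genes differed by signal, which bears on how each member reads. The SD across detected genes was 0.39 under a mean log2 signal of 7, 0.29 from 7 to 10 and 0.19 at 10 or more. The 5th to 95th percentile ran from -0.60 to 0.63 in the dim class and from -0.41 to 0.43 in the middle class. By definition such a range leaves out 5% of its class at each end. Psme2b lay outside the range of the dim class, as did the measured value of Psmb8, which rests on a KO reading that was not detected. None of the 8 members of the middle class, Psmb5 and Psmd14 included, lay outside the range of theirs. These spreads are across genes of 1 pair of arrays and are not a replicate error.

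Genes that work with the proteasome but carry other symbols also lay near 0. Of 15 listed, 10 were detected, with a median log2 change of 0.01. Ecpas, which encodes a proteasome adaptor and scaffold, was 1.69-fold higher in the KO pool, with 354.6 in KO and 250.4 in CON, a log2 change of 0.76 that was 0.42, under 1.5-fold, in the authors' values. Adrm1, a ubiquitin receptor of the base, was lowest at -0.27, with 1869.7 in KO and 2179.6 in CON, and Sem1, a small lid subunit, read 4059.4 in KO and 3465.5 in CON (0.18). The maturation factor gene Pomp had a log2 change of -0.11, and the core assembly chaperone genes Psmg1, Psmg2 and Psmg3 had 0.02, 0.01 and -0.17.

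Of 12 genes listed for the control of proteasome transcription, 8 were detected, 4 above 0 and 4 below, with a median of -0.02 and none past 1.2-fold. Nfe2l1 read 2769.4 in KO and 2472.8 in CON, a log2 change of 0.11. Ddi2, the protease that activates the Nfe2l1 protein, was highest at 0.24, on a dim probe with 188.7 in KO and 173.4 in CON. Vcp, the segregase that extracts ubiquitinated proteins, was lowest at -0.13 (10863.8 in KO and 11338 in CON). Of 14 listed genes of ubiquitin supply and delivery 10 were detected, 3 above 0 and 7 below, with a median of -0.06 and none past 1.5-fold. The ubiquitin fusion gene Rps27a was highest at 0.23 (4313.3 in KO and 3602.8 in CON).

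Markers of other cell types also differed between the pools, some by more than any proteasome gene. Of 5 skeletal muscle markers 3 were detected, all above 0, with a summed raw signal of 847.0 in KO and 698.4 in CON. Their median log2 change of 0.62 is the value of Acta1, whose CON reading was not detected. The myosin light chain gene Myl1 read 278.6 in KO and 169.2 in CON, a log2 change of 1.64 (3.12-fold), and 0.72 in the authors' values. Acta1, skeletal muscle actin, read 170.1 in KO and 147.8 in CON, where it was not detected, and was at least 1.04-fold higher in KO. Its log2 change was 0.20 in the authors' values. Mylpf had a log2 change of 0.02, and Ckm and Tnnt3 were detected in neither pool.

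Of 5 dermal fibroblast markers 2 were detected, both below 0, with a summed raw signal of 786.5 in KO and 848.6 in CON. The collagen gene Col1a1 read 173.1 in KO and 202.3 in CON, a log2 change of -0.83 that was -0.31 in the authors' values, and Dcn had -0.16. Col1a2, Col3a1 and Lum were detected in neither pool. All 4 melanocyte markers were detected and below 0, from -0.33 (Pmel) to -0.09 (Dct), with a median of -0.20 and a summed raw signal of 3086.3 in KO and 3305.9 in CON. The part of these markers in the proteasome readings was not tested.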

How the data were processed

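Both pools were hybridised to an Illumina mouse bead array. GenomeStudio 2011.1 is the software that the submitters' processing notes name. The deposited tables hold an average bead intensity per probe on a linear scale, non-normalized, with a detection p-value, and a normalized intensity table whose sorted signals agree between both arrays within 0.3. The series matrix held the normalized values, with 0 probes differing.

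The deposited non-normalized intensities were processed here with the neqc function (limma 3.58.1, R 4.3.3): normal-exponential background correction with inferred negative controls, an offset of 16, quantile normalization and log2. The offset and background model change the fold of dim probes most. Later steps used Python 3.11.15, numpy 2.4.6, pandas 2.3.3 and matplotlib 3.10.9. Members kept the symbol of the file. Other probes were named through RefSeq (GRCm38.p6). Where a gene had several probes, the brightest by mean log2 signal stood for it, with the others given beside it. Nothing could be tested with 1 pool per genotype, and precision is limited by there being 2 arrays. The neqc step was tested on simulated data in which known folds were set on bright probes. That simulation set no known fold on dim probes.

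The members, the lists, the 1.2-fold and 1.5-fold limits and the naming rule were all chosen with earlier results of these data known. That rule names the highest and lowest member of each subcomplex and list, every 1.5-fold change, every gene whose detected probes disagree in direction by over 0.2, and every undetected member; other members are given as the full set. Some genes of the related lists are not reported here by name. Classes of signal and the bound on undetected probes were chosen after values were seen. The bounds refer to the neqc values alone. The alternatives were no background correction, the authors' values, an offset of 50, 75th percentile centring, the mean of detected probes and 3 other detection filters.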

Additional observations from a re-analysis of the deposited data

How the results depend on the processing

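Medians of the 8 subcomplexes moved by less than 0.1 on the log2 scale under the 8 alternatives, apart from the following. With the mean of detected probes the base chaperones had -0.17. Over genes detected in both pools the inducible beta subunits had 0.17. At a mean log2 signal of 8 or more the other base subunits had 0.06 and the base chaperones -0.05. For single genes 17 of 295 values moved by 0.1 or more, in 8 genes; with the mean of detected probes Psmd11 had 0.23 and Psmd9 -0.46, opposite to their brightest probes, so the 1.2-fold lower reading of Psmd11 (-0.27) reversed there.

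Counts past a fold depended on the treatment of dim probes. Proteasome genes 1.2-fold higher and lower numbered 5 and 5 in the main values, 3 and 2 without background correction, 2 and 1 in the authors' normalized values, 3 and 4 with an offset of 50, and 2 and 2 at a mean log2 signal of 8 or more. At 1.5-fold the counts of 1 and 1 became 0 and 0 under those 4 settings, and over genes detected in both pools 1 and 0. Of all detected genes 1381 were higher and 1210 lower by 1.2-fold, against 512 and 404 without background correction, 498 and 382 in the authors' values, and 523 and 441 at the higher signal. By 1.5-fold 275 were higher and 202 lower (57.7% higher), against 50 and 23 without background correction (68.5%), 48 and 15 in the authors' values (76.2%), 102 and 57 with an offset of 50, and 66 and 43 at the higher signal. Over genes detected in both pools 114 were lower. No setting moved the median of all genes by over 0.008.

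No paired analysis was possible because each genotype had 1 pool. Leaving out a replicate could not be done.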
